A study of Ovis aries with 20 samples.

Results

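Pancreas of wild-type (WT) sheep at term was compared with WT pancreas at 65 days of gestation, across all genes of a bulk RNA-seq count table. The members were chosen by their labels: the 4 libraries of WT genotype at these ages, with 2 animals at each, out of 20 libraries in all. The 65-day tissue came from fetuses and the term tissue from newborn lambs (day 147), so that fetal age and birth cannot be told apart. All animals were American Romney sheep, and the WT animals were bred and carried no targeted allele. A further 6 WT libraries, of 2 fetuses each at 80, 100 and 120 days, entered the same fit and show whether a difference was present before term. The last 10 libraries were of CFTR−/− animals at the same ages, cloned from a male fibroblast line targeted in exon 2 of CFTR, and serve here for the same comparison in other animals. The study followed normal development of the pancreas and its course without CFTR, a chloride and bicarbonate channel of duct cells. The animal label of WT animal 1 at 65 days recurs on a CFTR−/− library of 100 days, and libraries were grouped here by genotype and age.

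The exocrine pancreas consists of acini, whose cells make digestive enzymes and their inactive precursors (zymogens), fold them in the endoplasmic reticulum (ER), store them in granules and release them into ducts. Endocrine cells arise from the same embryonic epithelium, gather into islets and release hormones into the blood. Both grow within a mesenchyme that lays down collagen and supplies growth factors to the epithelial progenitors. Around birth, circulating glucocorticoids rise and feeding moves from the placenta to the gut.

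Library totals were 61851866 and 63946452 counts for animals 1 and 2 at 65 days, and 61638572 and 62040594 at term. Levels are given in CPM, the usual unit of counts relative to the library total, which was scaled here by TMM factors, with animal 1 before animal 2. An expression level of 0 counts allows up to 3 counts, or 0.0375 and 0.0400 CPM at 65 days against 0.0737 and 0.0579 CPM at term, which covers counting error only. The 10 genes with most counts took 12.8% and 12.3% of the libraries at 65 days but 49.1% and 33.8% at term. The animals of term also differed more from each other, by a median of 0.46 on the log2 scale over all genes tested against 0.22 at 65 days. With 2 animals at each age an exact two-sided permutation test has a smallest p of 0.333, so tests rest on edgeR's quasi-likelihood fit, which shares the spread of each gene over all 10 WT libraries.

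Of 18714 genes tested, 518 (2.77%) were called, which required an adjusted p (edgeR, Benjamini-Hochberg) no higher than 0.01 and 0.58 or more on the log2 scale, up or down. Of these, 282 (1.51% of genes tested) were higher at term and 236 (1.26%) lower, and in all 518 the libraries of term lay apart from those of 65 days. Such separation alone was common, with 5807 genes (31%) higher and 6287 (33.6%) lower in both term libraries. The median log2 fold change over all genes tested was -0.01. Among the called genes, 49 were higher and 36 lower by at least 4 on the log2 scale. With library totals as the only scaling the median of all genes moved by -0.72, and the calls split into 113 higher and 1041 lower (9.79% higher, against 54.4% with TMM).

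The number of calls differed with the libraries and the test used, and since leaving out a library changes the spread, the genes tested and, for these 2 ages, the group mean together, the cause was not tested. It was 0 by edgeR without 65-day animal 1 or without animal 2 (3660 and 3818 genes at an unadjusted p under 0.05, against 5999 with all libraries), and 2815 by DESeq2 with all libraries. It was 7 without either 80-day animal, 111 without either 100-day animal, 1459 or 1491 without 120-day animal 1 or 2, and 220 or 202 without term animal 1 or 2. A called gene below is therefore one past the threshold with all 10 WT libraries and, unless another scaling is named, with TMM. List counts at an unadjusted p under 0.05 stand beside 5999 of all 18714 genes tested. Counts of list members higher or lower in both term libraries stand beside 31% and 33.6% of all genes tested.

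**Figure D1:**
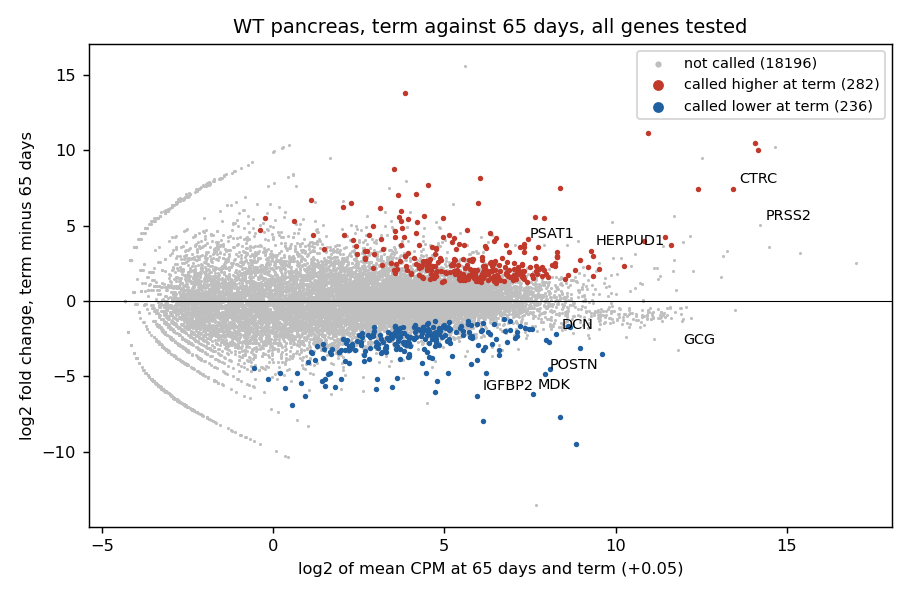
Log2 fold change of term over 65 days (vertical axis) against the log2 of the mean CPM at both ages for each of the 18714 genes tested, with the 282 genes called higher in red, the 236 called lower in blue and the rest in grey. CTRC, PSAT1 and HERPUD1 lie among the genes called higher, and IGFBP2, MDK, POSTN and DCN among those called lower.

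Of the 39 gene lists described here, digestive enzymes had the highest median fold change. Of 15 genes tested, 4 were called higher and 0 lower, 13 were higher in both term libraries, and the median log2 fold change was 3.89 (all genes tested -0.01). The counts of the list summed to 22229 and 20657 CPM at 65 days against 372280 and 123030 CPM at term. CTRC, chymotrypsin C, found in the Oar_v4.0 build on chromosome 12 from 50038474 to 50044900, had 171 and 83.9 CPM at 65 days against 38253 and 6029.6 CPM at term (log2 fold change 7.44, SE 1.09, edgeR, Benjamini-Hochberg adjusted p 0.00603). Term animal 1 had the higher level, and both term animals lay above both fetuses. CPB1, a carboxypeptidase that cleaves basic residues, had 51.1 and 74.3 CPM at 65 days against 19897 and 1534 CPM at term (log2 fold change 7.42, SE 1.21, edgeR, Benjamini-Hochberg adjusted p 0.00816). Without term animal 1 its log2 fold change was 4.66. KLK1, tissue kallikrein, rose from 10.7 and 6.30 to 636 and 156 CPM (log2 fold change 5.54, SE 0.67), and PLA2G1B, the secreted pancreatic phospholipase, from 186 and 253 to 5097 and 1689 CPM (log2 fold change 3.95, SE 0.63). In these 4 called enzymes term animal 1 was the higher. In bulk tissue such as this, more or fewer cells of a type and more or less RNA per cell cannot be told apart, for enzymes as for the genes of other cells below.

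The other 11 enzymes missed the threshold, although in 9 of them both term libraries were above both 65-day libraries. On the same 15 genes DESeq2 called 13 higher and 0 lower, edgeR with library totals only called 6 higher and 0 lower, and 12 were higher at an unadjusted p under 0.05 in edgeR. PRSS2, a trypsinogen, had 1178 and 1113 CPM at 65 days against 43798 and 30199 CPM at term (log2 fold change 5.01, SE 0.93, edgeR, Benjamini-Hochberg adjusted p 0.0122). Trypsinogens form a family of near-identical copies, and reads may be split among them, so the value of any copy is uncertain. CEL, the bile salt-dependent lipase, had 4173 and 3099 CPM at 65 days against 59918 and 24839 CPM at term (log2 fold change 3.54, SE 1.07, edgeR, Benjamini-Hochberg adjusted p 0.0587), and CELA3B, an elastase of another such family, 2072 and 1426 CPM at 65 days against 25612 and 9743 CPM at term (log2 fold change 3.34, SE 0.79, edgeR, Benjamini-Hochberg adjusted p 0.0278). CPA1, a carboxypeptidase for aliphatic and aromatic residues, had 8513 and 8345 CPM at 65 days against 124690 and 29267 CPM at term (log2 fold change 3.19, SE 1.42, edgeR, Benjamini-Hochberg adjusted p 0.157). It had the most counts of the list in these libraries but for term animal 2, where PRSS2 did. AMY2B, an amylase, had 613 and 394 CPM at 65 days against 13168 and 1752 CPM at term (log2 fold change 3.89, SE 0.94), the lower value again in term animal 2. CLPS, the cofactor of pancreatic lipase, had 309 and 570.1 CPM at 65 days against 12879 and 4708 CPM at term (log2 fold change 4.32, SE 0.92). The lipase PNLIP itself was low, with 0.488 and 0.680 CPM at 65 days against 35.1 and 2.22 CPM at term (log2 fold change 4.99, SE 1.12, edgeR, Benjamini-Hochberg adjusted p 0.0233). Its relative PNLIPRP2 was abundant at both ages, with 3956 and 4860 CPM at 65 days against 14479 and 11640 CPM at term (log2 fold change 1.57, SE 0.73). CTRL, a chymotrypsin-like protease, was the member lower in both term libraries, with 2.64 and 2.15 CPM at 65 days against 0.565 and 2.04 CPM at term (log2 fold change -0.83, SE 0.63, edgeR, Benjamini-Hochberg adjusted p 0.386). Without term animal 1 the log2 fold changes were 1.85 for CPA1, 1.85 for AMY2B, 1.98 for PNLIP and -0.18 for CTRL, and that of CTRL was -2.07 without term animal 2. An antisense gene overlaps CTRL, and reads of the pair may be mixed. DNASE1, which degrades DNA, had 482 and 147 CPM at 65 days against 5216 and 179 CPM at term, so that the ages overlapped. Its log2 fold change of 3.10 was -0.76 without term animal 1, and an antisense gene overlaps it.

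Several of the most abundant loci carry no gene name. The locus LOC101117443, on chromosome 14 from 1938235 to 1944246, had the highest level per length at both ages, 17632 RPKM (CPM per kilobase of exon) at 65 days and 99176 RPKM at term, as means of both animals. It had 39294 and 41109 CPM at 65 days against 189510 and 262730 CPM at term (log2 fold change 2.49, SE 3.31, edgeR, Benjamini-Hochberg adjusted p 0.633). The animals of each age were closer to each other than the ages were, and the large SE is that of edgeR's fit, whereas DESeq2 on the same libraries gave a log2 fold change of 2.54 (Benjamini-Hochberg adjusted p 6.91e-11). LOC101111795 and LOC101112049 lie close together on chromosome 4, the former from 105189216 to 105193172 and the latter from 105213945 to 105217613, the chromosome of PRSS2. They may be near-identical copies of a family, which was not tested, so their counts are uncertain. LOC101111795 had 30.7 and 41.6 CPM at 65 days against 70546 and 2341 CPM at term (log2 fold change 9.98, SE 1.73, edgeR, Benjamini-Hochberg adjusted p 0.00994), and LOC101112049 22.9 and 26.1 CPM at 65 days against 66051 and 2514 CPM at term (log2 fold change 10.45, SE 1.71, edgeR, Benjamini-Hochberg adjusted p 0.00816). Without term animal 1 their log2 fold changes were 6.07 and 6.73. Of the unnamed loci with the highest levels at term, LOC101120996, on chromosome 3 from 49813746 to 49815890, had 44.7 and 44.7 CPM at 65 days against 101070 and 2903 CPM at term (log2 fold change 10.18, SE 1.88, edgeR, Benjamini-Hochberg adjusted p 0.012, and 6.07 on the log2 scale without term animal 1). In each of these 4 loci both term animals were above both fetuses, and in the last 3 term animal 1 was far above term animal 2. LOC101117443 and LOC101120996 were not called.

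Of 20 genes of the zymogen granule and the acinar surface, 2 were called higher and 0 lower, with a median of 1.67 and 16 higher in both term libraries. ZG16, a lectin of the granule membrane, had 2.80 and 4.46 CPM at 65 days against 1217 and 110.1 CPM at term (log2 fold change 7.51, SE 1.11, edgeR, Benjamini-Hochberg adjusted p 0.00612). Without term animal 1 the log2 fold change was 4.97. PDIA2, a protein disulfide isomerase made by acinar cells, rose from 439 and 483 to 5828 and 5958 CPM (log2 fold change 3.68, SE 0.56, edgeR, Benjamini-Hochberg adjusted p 0.00658). The term animals were close to each other for PDIA2. GP2, the main glycoprotein of the granule membrane, had 1848 and 2229 CPM at 65 days against 24188 and 7966 CPM at term (log2 fold change 2.98, SE 0.82), and SYCN, syncollin, 123 and 145 CPM at 65 days against 12694 and 491 CPM at term (log2 fold change 5.62, SE 1.26). Neither was called, and SYCN was much higher in term animal 1, without which its log2 fold change was 1.92. CYM, the gene of the milk-clotting protease chymosin, had 0 counts in both 65-day libraries and 45.5 and 11.8 CPM at term, which is at least 9.53 higher on the log2 scale when 3 counts per library are set at 65 days.

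Of 8 acinar transcription factors tested, 0 were called by edgeR (5 higher and 0 lower at an unadjusted p under 0.05, and 4 and 0 by DESeq2), the median was 1.67, and 5 were higher in both term libraries. XBP1, which drives genes of the secretory pathway, had 406 and 508 CPM at 65 days against 1925 and 2710.1 CPM at term (log2 fold change 2.34, SE 0.41, edgeR, Benjamini-Hochberg adjusted p 0.0105). GATA4 had 9.61 and 15.2 CPM at 65 days against 139.5 and 87.8 CPM at term (log2 fold change 3.20, SE 0.92), and CREB3L2, a factor of the same class as ATF6, 4.70 and 6.09 CPM at 65 days against 71.0 and 22.7 CPM at term (log2 fold change 3.12, SE 0.94). NR5A2, a nuclear receptor needed for enzyme genes, had 53.8 and 49.5 CPM at 65 days against 58.0 and 44.6 CPM at term. Its ages overlapped, and its log2 fold change of -0.01 was 0.0396 with DESeq2 size factors and ran from -0.16 without term animal 1 to 0.17 without term animal 2.

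Of 35 genes of the unfolded protein response, 12 were called higher and 0 lower, with a median of 1.97, and 34 were higher in both term libraries. HERPUD1, which takes part in the disposal of misfolded ER proteins, lies on chromosome 14 from 24326126 to 24337298 and rose from 110.2 and 113 to 906 and 1348 CPM (log2 fold change 3.34, SE 0.30, edgeR, Benjamini-Hochberg adjusted p 0.00273). EDEM1, which hands misfolded glycoproteins to that route, rose from 25.6 and 21.2 to 263 and 284 CPM (log2 fold change 3.55, SE 0.28, edgeR, Benjamini-Hochberg adjusted p 0.00273). In both genes the difference between the ages exceeded that between the animals of an age. SYVN1, its ubiquitin ligase, had 56.2 and 42.2 CPM at 65 days against 274 and 245 CPM at term (log2 fold change 2.40, SE 0.26), with a gene on the other strand over part of it. SEL1L, the partner of SYVN1, had 1.35 and 1.47 CPM at 65 days against 216 and 35.2 CPM at term (log2 fold change 6.47, SE 1.07, edgeR, Benjamini-Hochberg adjusted p 0.00846). DNAJC3, a co-chaperone, rose from 65.4 and 75.4 to 562 and 556 CPM (log2 fold change 2.99, SE 0.32). The stress sensor ATF6 rose from 24.1 and 24.9 to 119.7 and 156 CPM (log2 fold change 2.49, SE 0.28), and CREB3L3, a membrane-bound factor cleaved like it, from 6.72 and 6.52 to 58.6 and 88.4 CPM (log2 fold change 3.47, SE 0.47).

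HSPA5 and HSP90B1, abundant ER chaperones, were higher in both term animals without being called. HSPA5, the chaperone BiP, had 852 and 943 CPM at 65 days against 2662 and 9034 CPM at term (log2 fold change 2.70, SE 0.57, edgeR, Benjamini-Hochberg adjusted p 0.0196). HSP90B1 had 1311 and 1311 CPM at 65 days against 1828 and 8756 CPM at term (log2 fold change 2.01, SE 0.66, edgeR, Benjamini-Hochberg adjusted p 0.0731). Without term animal 2 the log2 fold changes were 1.58 for HSPA5 and 0.49 for HSP90B1. For both chaperones term animal 2 was the higher, whereas for most digestive enzymes it was term animal 1. The whole list summed to 7396 and 7981 CPM at 65 days against 19916 and 41777 CPM at term.

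Of 36 genes of the amino acid response and of serine synthesis tested, 10 were called higher and 0 lower, 29 were higher and 2 lower in both term libraries, and the median was 1.75. PSAT1, an aminotransferase of serine synthesis on chromosome 2 from 58139556 to 58167245, had the smallest adjusted p of all 18714 genes tested. It rose from 19.998 and 23.3 to 272 and 325 CPM (log2 fold change 3.78, SE 0.25, edgeR, Benjamini-Hochberg adjusted p 0.0022). At 120 days it was still at 20.9 and 15.7 CPM. CHAC1, which breaks down glutathione, had 0.425 and 0.400 CPM at 65 days against 10.3 and 41.4 CPM at term (log2 fold change 5.97, SE 0.76, edgeR, Benjamini-Hochberg adjusted p 0.00416), and was higher in term animal 2. MARS, the methionyl-tRNA synthetase, rose from 37.0 and 41.7 to 126 and 187 CPM (log2 fold change 1.99, SE 0.25), with antisense genes over part of it. NUPR1, a small stress-induced chromatin protein with most counts in the list, had 479 and 458 CPM at 65 days against 1177 and 2094 CPM at term (log2 fold change 1.80, SE 0.52, edgeR, Benjamini-Hochberg adjusted p 0.0511).

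Proteins enter the ER through the signal recognition particle and the translocon, and leave it in coated vesicles. Of 61 genes of these steps, 14 were called higher and 0 lower, with a median of 1.11 and 53 higher in both term libraries. MCFD2, part of a cargo receptor between ER and Golgi, rose from 64.4 and 81.1 to 417 and 680.2 CPM (log2 fold change 2.91, SE 0.32, edgeR, Benjamini-Hochberg adjusted p 0.00286). SRPRA, the receptor of the signal recognition particle, rose from 93.0 and 94.6 to 365 and 413 CPM (log2 fold change 2.05, SE 0.26). SEC24A, a cargo-binding subunit of the vesicle coat, rose from 26.4 and 25.0 to 94.3 and 76.6 CPM (log2 fold change 1.73, SE 0.23). RRBP1, a ribosome-binding protein of the ER membrane, had 433 and 369.9 CPM at 65 days against 1546 and 2480 CPM at term (log2 fold change 2.33, SE 0.34). With library totals as the only scaling, 6 genes of the unfolded protein response, 4 of the amino acid response and 2 of ER entry and transport were called, all higher.

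Of 18 genes known to answer to glucocorticoids, 5 were called higher and 0 lower (3 and 0 with library totals only), 13 were higher and 1 lower in both term libraries, and the median was 2.29. KLF9, a zinc finger repressor, rose from 6.87 and 4.74 to 89.0 and 72.6 CPM (log2 fold change 3.80, SE 0.39, edgeR, Benjamini-Hochberg adjusted p 0.00273). PDK4, which slows glucose oxidation in mitochondria, rose from 11.98 and 7.48 to 129 and 219 CPM (log2 fold change 4.16, SE 0.50, edgeR, Benjamini-Hochberg adjusted p 0.0037). FKBP5, a co-chaperone of the glucocorticoid receptor, rose from 26.2 and 30.0 to 164 and 116 CPM (log2 fold change 2.32, SE 0.30, and 1.57 with library totals only, where it was not called). KLF9 already stood at 19.5 and 18.2 CPM at 100 days, while FKBP5 had 25.3 and 26.1 CPM at 120 days, within the range of the earlier ages. TSC22D3, the leucine zipper protein GILZ, had 55.7 and 63.7 CPM at 65 days against 98.2 and 122 CPM at term (log2 fold change 0.89, SE 0.37, edgeR, Benjamini-Hochberg adjusted p 0.137).

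Further genes named by their adjusted p or fold change had various roles, and FASN was named because the study followed it. PFKFB1, which sets the level of a regulator of glycolysis, had 0.175 and 0.253 CPM at 65 days against 63.7 and 26.9 CPM at term (log2 fold change 7.72, SE 0.73, edgeR, Benjamini-Hochberg adjusted p 0.00273). SCD, the desaturase that makes oleic acid, had 0 and 0.107 CPM at 65 days against 36.4 and 9.56 CPM at term (log2 fold change 8.74, SE 1.38). No fold is given without 65-day animal 2, as animal 1 had 0 counts. FASN, fatty acid synthase, had 30.1 and 29.1 CPM at 65 days against 104 and 66.1 CPM at term (log2 fold change 1.52, SE 0.34, edgeR, Benjamini-Hochberg adjusted p 0.0225), and was not called. CERK, ceramide kinase, rose from 3.73 and 4.32 to 92.7 and 54.5 CPM (log2 fold change 4.19, SE 0.41, edgeR, Benjamini-Hochberg adjusted p 0.00273). SMPDL3B, a phosphodiesterase of membrane lipids, was called higher with 0.0750 and 0 CPM at 65 days against 4.32 and 3.91 CPM at term, and overlaps another gene on its strand. Its mean level at 65 days was no more than 3 counts per library would give, so no fold is given. The counts behind SCD, SLC25A45 and SBK1 were close to 0 at 65 days, so their fold changes depend on few reads. SLC25A45, a mitochondrial carrier, had 0.0250 and 0.360 CPM at 65 days against 35.0 and 14.4 CPM at term (log2 fold change 7.02, SE 1.22). ANO1, a calcium-activated chloride channel of acinar cells, rose from 5.48 and 5.45 to 50.1 and 44.5 CPM (log2 fold change 3.11, SE 0.26, edgeR, Benjamini-Hochberg adjusted p 0.00273). INHA, the alpha subunit of inhibin, rose from 4.92 and 3.73 to 45.2 and 55.0 CPM (log2 fold change 3.53, SE 0.35). FAM46C, a poly(A) polymerase of secretory cells, rose from 30.5 and 36.7 to 439.9 and 352 CPM (log2 fold change 3.56, SE 0.28), with an antisense gene over part of it. KIAA0040 rose from 4.11 and 5.17 to 67.8 and 71.1 CPM (log2 fold change 3.90, SE 0.34), and SBK1, a kinase, from 0.0250 and 0.187 to 14.3 and 4.72 CPM (log2 fold change 6.48, SE 1.07).

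Of 19 transcription factors of pancreatic progenitors tested, 0 were called higher and 2 lower, and the median was -0.78. In both term libraries 13 were lower and 2 higher, against 33.6% and 31% of all genes tested. HHEX, a homeobox factor of the early pancreatic bud, fell from 57.0 and 61.7 to 10.3 and 10.5 CPM (log2 fold change -2.51, SE 0.23, edgeR, Benjamini-Hochberg adjusted p 0.00273). SOX11 fell from 3.51 and 5.04 to 0.319 and 0.251 CPM (log2 fold change -3.91, SE 0.63, edgeR, Benjamini-Hochberg adjusted p 0.00751). SOX9, which marks progenitors and later ducts, had 94.5 and 83.1 CPM at 65 days against 60.6 and 46.6 CPM at term (log2 fold change -0.73, SE 0.34, edgeR, Benjamini-Hochberg adjusted p 0.177), and GATA6 60.3 and 60.2 CPM at 65 days against 49.1 and 46.7 CPM at term (log2 fold change -0.33, SE 0.26). Neither SOX9 nor GATA6 was called.

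Ducts gave no common direction. Of 23 duct and epithelial genes tested, 2 were called higher and 2 lower, with a median of -0.05. MUC1, a membrane mucin, rose from 28.8 and 19.8 to 394 and 197 CPM (log2 fold change 3.60, SE 0.46, edgeR, Benjamini-Hochberg adjusted p 0.00416), and CA4, a membrane carbonic anhydrase, was called higher. CA4 had 0.0375 and 0.0267 CPM at 65 days against 1.40 and 1.70 CPM at term, so that its counts at 65 days were no more than the 3 that a level of 0 allows, and no fold is given. SCTR, the receptor through which secretin stimulates bicarbonate secretion, fell from 54.6 and 56.6 to 14.8 and 13.8 CPM (log2 fold change -1.96, SE 0.28, edgeR, Benjamini-Hochberg adjusted p 0.00562). SPP1, osteopontin, fell from 109 and 179 to 8.04 and 2.80 CPM (log2 fold change -4.75, SE 0.69). An antisense gene overlaps SPP1. KRT19, a keratin of duct cells, had 111 and 119.6 CPM at 65 days against 33.9 and 32.3 CPM at term (log2 fold change -1.80, SE 0.35, edgeR, Benjamini-Hochberg adjusted p 0.0147). CFTR itself had 30.8 and 35.2 CPM at 65 days against 20.6 and 15.8 CPM at term (log2 fold change -0.86, SE 0.32, edgeR, Benjamini-Hochberg adjusted p 0.1). ELF5, an epithelial transcription factor, had 26.6 and 27.7 CPM at 65 days against 9.36 and 8.97 CPM at term (log2 fold change -1.57, SE 0.33), also without being called.

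Of 18 endocrine lineage transcription factors, 0 were called higher and 2 lower, 15 were lower in both term libraries, and the median was -1.75. ISL1, needed for the maturation of islet cells, fell from 44.1 and 37.9 to 4.03 and 7.56 CPM (log2 fold change -2.82, SE 0.48, edgeR, Benjamini-Hochberg adjusted p 0.00903). NEUROG3, the factor that starts endocrine differentiation, had 10.2 and 13.6 CPM at 65 days against 0.467 and 0.270 CPM at term (log2 fold change -5.04, SE 0.97, edgeR, Benjamini-Hochberg adjusted p 0.0137). It was already at 0.587 and 1.78 CPM at 100 days. PAX4, a factor of the beta cell lineage, had 25.5 and 24.5 CPM at 65 days against 0.541 and 4.15 CPM at term (log2 fold change -3.38, SE 0.79), and INSM1 81.2 and 65.0 CPM at 65 days against 9.26 and 18.4 CPM at term (log2 fold change -2.40, SE 0.63). NEUROD1 had 39.2 and 25.7 CPM at 65 days against 3.88 and 13.4 CPM at term (log2 fold change -1.90, SE 0.54). NEUROG3, PAX4, INSM1 and NEUROD1 were lower in both term libraries but not called. Without term animal 2 the log2 fold changes were -5.52 for PAX4 and -3.06 for NEUROD1, and without term animal 1 that of NEUROD1 was -1.22.

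Of 4 hormone genes tested, 0 were called by edgeR (0 higher and 3 lower at an unadjusted p under 0.05, and 0 and 3 by DESeq2), 3 were lower in both term libraries, and the median was -2.69. In edgeR with library totals only, 0 were called higher and 2 lower, which were SST and GHRL. GCG, the precursor of glucagon, had 8877 and 4161 CPM at 65 days against 366 and 1025 CPM at term (log2 fold change -3.23, SE 0.85, edgeR, Benjamini-Hochberg adjusted p 0.0389). SST, somatostatin, had 1129 and 1194 CPM at 65 days against 237 and 390.2 CPM at term (log2 fold change -1.89, SE 0.39, edgeR, Benjamini-Hochberg adjusted p 0.0187). GHRL, ghrelin, had 12.5 and 75.7 CPM at 65 days against 0.0983 and 0.675 CPM at term (log2 fold change -6.74, SE 1.80), and PPY, pancreatic polypeptide, 52.6 and 405 CPM at 65 days against 42.1 and 60.5 CPM at term, with ages that overlapped. The log2 fold change of PPY was -2.16, and -0.04 without 65-day animal 2. IAPP was at 0 in all 4 libraries. GIP, an incretin outside that list, fell from 62.0 and 219 to 0 and 1.06 CPM (log2 fold change -7.94, SE 1.39, edgeR, Benjamini-Hochberg adjusted p 0.00826). No fold is given without term animal 2, as term animal 1 had 0 counts. Of 23 genes of endocrine granules and glucose sensing, 0 were called by edgeR (1 higher and 15 lower at an unadjusted p under 0.05, and 1 and 5 by DESeq2), 17 were lower in both term libraries, and the median was -1.502. Scaled by library totals only, 0 of these genes were called higher and 4 lower by edgeR. CHGA, chromogranin A, had 949 and 789 CPM at 65 days against 125 and 772 CPM at term (log2 fold change -0.95, SE 0.68), and SCGN, secretagogin, 316 and 250.4 CPM at 65 days against 28.8 and 91.4 CPM at term (log2 fold change -2.23, SE 0.49). For both genes term animal 2 was well above term animal 1, and the log2 fold change of CHGA was -0.12 without term animal 1 and -2.79 without term animal 2. The summed hormone counts were 10071 and 5835 CPM at 65 days against 645 and 1477 CPM at term. The insulin gene INS had no usable name here, so the hormone list and its sum do not cover insulin.

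Genes of the extracellular matrix made up the most calls of lower genes in any list. Of 40 genes of fibrillar collagens and matrix, 0 were called higher and 13 lower, and the median was -1.28. In both term libraries 28 were lower, against 33.6% of all genes tested. POSTN, periostin, an adhesive protein of young mesenchyme, fell from 420.2 and 519.9 to 20.3 and 11.7 CPM (log2 fold change -4.88, SE 0.60, edgeR, Benjamini-Hochberg adjusted p 0.00396). MFAP2, a protein of elastic microfibrils, fell from 181 and 177 to 10.5 and 19.7 CPM (log2 fold change -3.56, SE 0.42, edgeR, Benjamini-Hochberg adjusted p 0.00355). OGN, a small proteoglycan, fell from 140.3 and 167 to 32.6 and 21.3 CPM (log2 fold change -2.51, SE 0.27), and DCN, decorin, from 444 and 563 to 107 and 109 CPM (log2 fold change -2.22, SE 0.30). For these 4 genes the difference between the ages exceeded that between the animals of an age. COL3A1, with most counts of the list in these libraries but for term animal 2, had 3512 and 4188 CPM at 65 days against 878 and 437 CPM at term (log2 fold change -2.55, SE 0.52, edgeR, Benjamini-Hochberg adjusted p 0.0179). COL1A1, the main fibrillar collagen of connective tissue, had 1733 and 1737 CPM at 65 days against 869 and 311 CPM at term (log2 fold change -1.56, SE 0.48, edgeR, Benjamini-Hochberg adjusted p 0.0636), and SPARC, a collagen-binding glycoprotein, 1023 and 1369.9 CPM at 65 days against 614 and 257 CPM at term (log2 fold change -1.46, SE 0.44). These 3 were not called. Without term animal 1 the log2 fold change of COL1A1 was -2.43, and without term animal 2 it was -0.99 for COL1A1 and -0.95 for SPARC.

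Outside that list, the collagen gene COL2A1 fell from 51.7 and 51.6 to 1.30 and 0.347 CPM (log2 fold change -6.02, SE 0.77, edgeR, Benjamini-Hochberg adjusted p 0.00416). COL9A1 fell from 129 and 126 to 10.1 and 16.7 CPM (log2 fold change -3.25, SE 0.31), and COL9A3 from 76.1 and 57.5 to 2.68 and 2.14 CPM (log2 fold change -4.80, SE 0.41), the latter with an antisense gene over part of it. Of 21 basement membrane genes, 0 were called higher and 2 lower, with a median of -0.15. LAMA1, a laminin chain of early epithelia, fell from 91.1 and 46.2 to 4.13 and 6.52 CPM (log2 fold change -3.68, SE 0.54), and COL18A1 from 266 and 203 to 63.8 and 29.3 CPM (log2 fold change -2.33, SE 0.37). Of 21 genes of stellate, smooth muscle and myofibroblast cells, 0 were called by edgeR (1 higher and 6 lower at an unadjusted p under 0.05, and 1 and 3 by DESeq2), and the median was -0.54. Scaled by library totals only, 0 of them were called higher and 4 lower by edgeR. VIM, vimentin, had 954 and 1081 CPM at 65 days against 215 and 153 CPM at term (log2 fold change -2.47, SE 0.51, edgeR, Benjamini-Hochberg adjusted p 0.0177), and ACTA2, smooth muscle actin, 45.5 and 43.8 CPM at 65 days against 25.2 and 9.18 CPM at term (log2 fold change -1.38, SE 0.77, with -2.23 without term animal 1 and -0.82 without term animal 2). Outside the lists, CBLN2, a secreted synaptic organizer, fell from 16.7 and 14.9 to 0.172 and 0.366 CPM (log2 fold change -5.82, SE 0.74), and SLC5A12, a lactate carrier, from 3.49 and 7.503 to 0.147 and 0.0771 CPM (log2 fold change -5.64, SE 0.78). SLC44A5, of a family of choline transporter-like proteins, and HTR1E, a serotonin receptor, were called lower too, with 3.05 and 2.55 CPM at 65 days against 0.0491 and 0 CPM at term for SLC44A5 and 2.64 and 2.19 CPM at 65 days against 0.0246 and 0.0579 CPM at term for HTR1E. Their levels at term were no more than the 3 counts that a level of 0 allows, and no fold is given. Falls with smaller folds but small SE were those of the actin-binding DBN1, from 117 and 106 to 15.7 and 13.9 CPM (log2 fold change -2.91, SE 0.28), and of PRSS35, from 202 and 191 to 33.5 and 25.6 CPM (log2 fold change -2.73, SE 0.28). NRK, a kinase, fell from 138 and 158 to 25.5 and 15.9 CPM (log2 fold change -2.84, SE 0.29), and C3H2orf40 from 26.8 and 29.4 to 3.93 and 3.16 CPM (log2 fold change -2.99, SE 0.29).

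Growth factors and binding proteins of fetal tissue were among the genes with the smallest adjusted p. Of 26 fetal RNA binding and growth genes tested, 1 was called higher and 5 lower (0 and 9 with library totals only), with a median of -0.47. MDK, midkine, a heparin-binding growth factor on chromosome 15 from 74497609 to 74500468, fell from 383 and 369.7 to 6.09 and 4.20 CPM (log2 fold change -6.20, SE 0.55, edgeR, Benjamini-Hochberg adjusted p 0.00273). PTN, pleiotrophin, its relative, fell from 509.5 and 537 to 26.5 and 19.2 CPM (log2 fold change -4.52, SE 0.38, edgeR, Benjamini-Hochberg adjusted p 0.00273). IGFBP2, which binds insulin-like growth factors, fell from 126 and 119 to 1.01 and 2.08 CPM (log2 fold change -6.29, SE 0.61, edgeR, Benjamini-Hochberg adjusted p 0.00273). In all 3 the term animals were far below the fetuses. IGFBP4, another such binding protein, went the other way, from 17.2 and 28.3 to 156 and 277 CPM (log2 fold change 3.25, SE 0.56, edgeR, Benjamini-Hochberg adjusted p 0.00954). DLK1, an imprinted membrane protein of fetal tissue, had 990.3 and 956 CPM at 65 days against 72.1 and 331 CPM at term (log2 fold change -2.27, SE 0.59, edgeR, Benjamini-Hochberg adjusted p 0.0385), with log2 fold changes of -1.51 without term animal 1 and -3.75 without term animal 2. PHLDA1, a target of growth signals, fell from 41.7 and 43.6 to 1.99 and 1.21 CPM (log2 fold change -4.75, SE 0.49). LEFTY2, an inhibitor of Nodal signals, fell from 31.1 and 12.6 to 0.0983 and 0.694 CPM (log2 fold change -5.69, SE 0.88).

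Calls in the Notch, Wnt and BMP and TGF beta lists differed with the scaling, beside 2.77% of all genes called with TMM. Of 26 Notch pathway genes, 2 were called higher and 1 lower (median -0.41), and 0 and 3 with library totals only. Among the modifiers and targets, LFNG, which glycosylates Notch, rose from 6.15 and 6.94 to 45.3 and 35.8 CPM (log2 fold change 2.63, SE 0.39), and HEYL rose from 46.0 and 44.7 to 129.7 and 149 CPM (log2 fold change 1.62, SE 0.25). With library totals only neither of them passed the threshold. HES6 fell from 26.1 and 21.3 to 0.393 and 0.926 CPM (log2 fold change -5.12, SE 0.59, edgeR, Benjamini-Hochberg adjusted p 0.00336). Of the receptors, NOTCH1 had 58.1 and 41.2 CPM at 65 days against 29.2 and 27.9 CPM at term (log2 fold change -0.80, SE 0.23, and -0.53 without 65-day animal 1), and NOTCH2 38.3 and 43.5 CPM at 65 days against 20.2 and 16.7 CPM at term (log2 fold change -1.15, SE 0.25). The target HES1 had 36.0 and 32.8 CPM at 65 days against 6.49 and 14.3 CPM at term (log2 fold change -1.72, SE 0.37), and these 3 were not called. Of 19 FGF pathway genes, 0 were called higher and 2 lower, with a median of -0.05, which was 0.007 with DESeq2 size factors. The ligand FGF7 fell from 8.52 and 8.06 to 0.860 and 1.04 CPM (log2 fold change -3.11, SE 0.47), and its receptor gene FGFR2 from 30.6 and 42.4 to 6.86 and 5.94 CPM (log2 fold change -2.51, SE 0.34, edgeR, Benjamini-Hochberg adjusted p 0.00443). The ligand FGF10, which drives progenitor growth, had 0.700 and 0.866 CPM at 65 days against 0.934 and 1.12 CPM at term at log2 fold change 0.40, and -0.31 with library totals only. ETV5, a target of FGF signals, had 6.25 and 4.44 CPM at 65 days against 39.9 and 12.8 CPM at term (log2 fold change 2.30, SE 0.49, and 1.30 without term animal 1), also not called.

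Of 43 Wnt pathway genes tested, 0 were called higher and 1 lower (0 and 6 with library totals only), with a median of -1.12. The gene called with TMM was FZD1, a Wnt receptor, which fell from 20.7 and 22.5 to 3.27 and 2.26 CPM (log2 fold change -2.97, SE 0.35, edgeR, Benjamini-Hochberg adjusted p 0.00343). Of 41 BMP and TGF beta pathway genes, 1 was called higher, which was INHA, and 1 lower (median -0.23), against 1 and 5 with library totals only. The gene called lower with TMM was ID4, an inhibitor of helix-loop-helix factors, which fell from 14.5 and 17.9 to 1.08 and 1.77 CPM (log2 fold change -3.48, SE 0.38). Of 14 Hedgehog pathway genes, 0 were called by edgeR (0 higher and 1 lower at an unadjusted p under 0.05, and 0 and 1 by DESeq2), and the median was -0.68. PDGFC, a platelet-derived growth factor, had 15.3 and 19.3 CPM at 65 days against 4.99 and 4.63 CPM at term (log2 fold change -1.85, SE 0.34, edgeR, Benjamini-Hochberg adjusted p 0.0123).

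Of 54 mitosis genes, 0 were called higher and 1 lower (0 and 12 with library totals only, and 2.77% of all genes called in either direction with TMM). Of the same genes 35 were lower in both term libraries, against 33.6% of all genes tested, and the median was -0.81. UBE2C, which feeds the anaphase-promoting complex, fell from 49.7 and 61.4 to 17.8 and 13.4 CPM (log2 fold change -1.83, SE 0.28, edgeR, Benjamini-Hochberg adjusted p 0.00678). Of 42 DNA replication genes, 1 was called higher and 0 lower, with a median of 0.06, or -0.63 with library totals only. CCNE2, a cyclin of entry into S phase, rose from 5.02 and 5.05 to 15.8 and 20.7 CPM (log2 fold change 1.86, SE 0.32, edgeR, Benjamini-Hochberg adjusted p 0.00948). Its log2 fold change was 1.16 with library totals only, where no gene of the list was called. The mitosis genes summed to 1107 and 1284 CPM at 65 days against 981 and 517 CPM at term.

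Of 77 cytosolic ribosomal protein genes, 0 were called by edgeR (0 higher and 16 lower at an unadjusted p under 0.05, and 0 and 1 by DESeq2). Of the same genes 74 were lower in both term libraries, against 33.6% of all genes tested, and the median was -1.01. Their counts summed to 139780 and 182740 CPM at 65 days against 60597 and 107440 CPM at term. RPLP1 had 4239 and 4537 CPM at 65 days against 2169.8 and 4039 CPM at term (log2 fold change -0.50, SE 0.66, with -0.07 without term animal 1 and -1.01 without term animal 2), and an exon length of 543 bases. Over all genes tested the median log2 fold change moved with exon length, from -0.37 in the shortest 3743 genes (median length 960 bases) to 0.13 in the longest 3743 (7918 bases), and the part of length in the values of this list was not tested. Of 13 mitochondrially encoded genes, 1 was called higher and 0 lower, 11 were higher in both term libraries, and the median was 1.97. The called gene was ND6, a subunit of complex I, which rose from 78.8 and 103 to 574 and 367 CPM (log2 fold change 2.37, SE 0.37, edgeR, Benjamini-Hochberg adjusted p 0.00682). It lies on the strand opposite to most mitochondrial genes, and an antisense gene overlaps it. COX1, a subunit of complex IV, had 1518 and 2498 CPM at 65 days against 11472 and 4264 CPM at term (log2 fold change 1.97, SE 0.69, and 1.13 without term animal 1). The 30 nuclear genes of oxidative phosphorylation tested had 0 calls by edgeR (0 higher and 0 lower at an unadjusted p under 0.05, and 0 and 0 by DESeq2) and a median of -0.25.

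The lists of immediate early, heat shock and antigen presentation genes had no called gene by edgeR with TMM. In edgeR with library totals only, 1 immediate early gene and 1 heat shock gene were called lower. Over all genes, 5999 of 18714 tested were at an unadjusted p under 0.05 with TMM. The 24 immediate early genes tested (5 higher and 3 lower at an unadjusted p under 0.05, and 3 and 0 by DESeq2) had a median of 0.49, or -0.26 with library totals only. The 23 heat shock genes (5 higher and 3 lower at an unadjusted p under 0.05, and 1 and 1 by DESeq2) had a median of 0.29, or -0.33 with library totals only. Among them BAG3, a co-chaperone, had 13.2 and 14.2 CPM at 65 days against 34.5 and 46.3 CPM at term (log2 fold change 1.57, SE 0.38), and DNAJB1 116 and 104 CPM at 65 days against 32.1 and 77.4 CPM at term (log2 fold change -1.002, SE 0.38, with -0.45 without term animal 1 and -1.76 without term animal 2), and with an antisense gene over part of DNAJB1. The 10 genes of antigen presentation tested (1 higher and 0 lower at an unadjusted p under 0.05, and 0 and 0 by DESeq2) had a median of -0.46, and summed to 223 and 294 CPM at 65 days against 369.9 and 192 CPM at term.

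**Figure D2:**
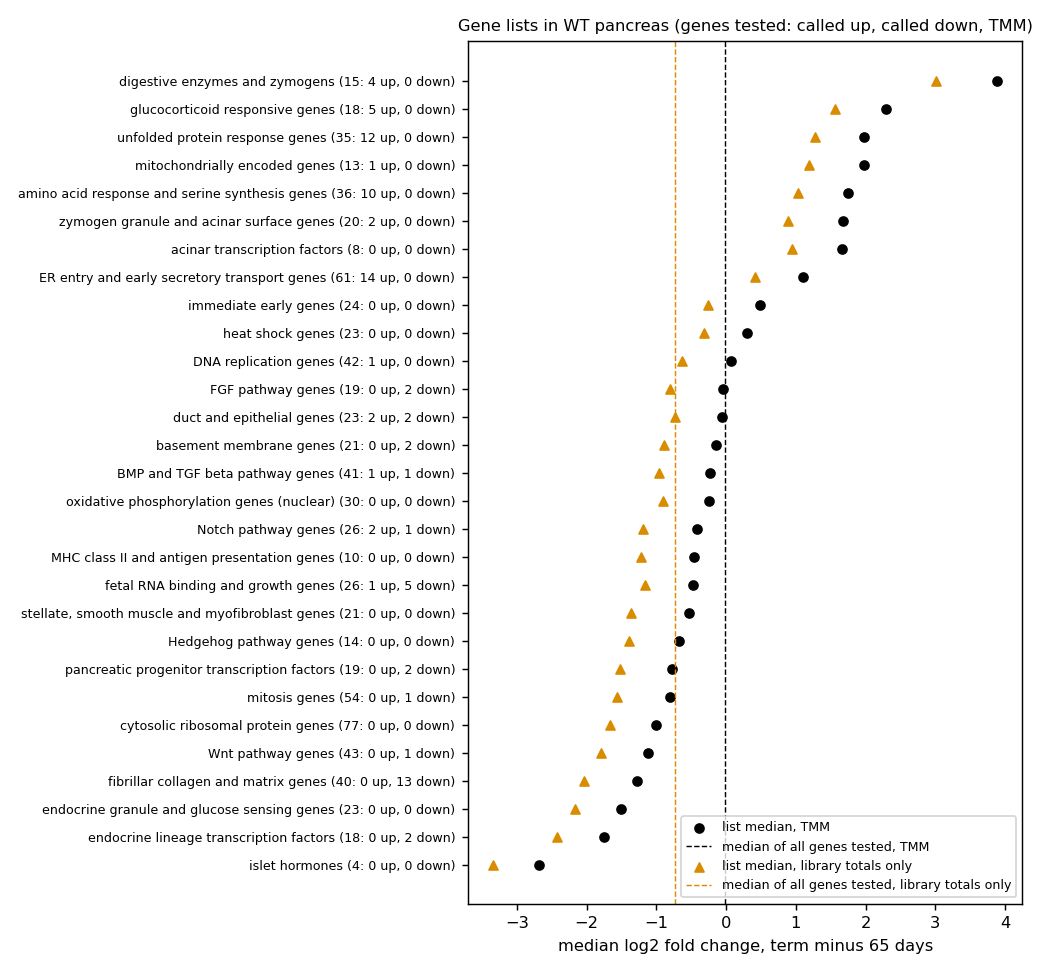
Median log2 fold change of term over 65 days (horizontal axis) in 29 gene lists, without the 10 lists of markers of other cell types. Circles give TMM scaling, triangles library totals only, and dashed lines the medians of all genes tested. Digestive enzymes lie at 3.89 and islet hormones, without the insulin gene INS, at -2.69 with TMM. All list medians lie lower with library totals only.

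Markers of other cell types were counted in the same libraries. Of 13 erythroid markers tested, 1 was called higher and 1 lower (0 and 1 with library totals only, median -1.70 with TMM). The list summed to 62.3 and 58.6 CPM at 65 days against 75.2 and 155 CPM at term. Of its 20 members 14 had a usable name, so the sum leaves out the others. TFRC alone had 24.4 and 21.5 CPM at 65 days against 47.1 and 116 CPM at term, and was not called. The study reported that hemoglobin subunits were much lower at birth, and the sum given here does not test that. ALAS2, of heme synthesis in red cell precursors, fell from 7.03 and 6.48 to 0.172 and 0.0964 CPM (log2 fold change -5.68, SE 1.01), EPB42, a protein of the red cell membrane, rose from 3.15 and 3.40 to 19.7 and 31.4 CPM (log2 fold change 2.96, SE 0.42), and TFRC had most counts in each of the 4 libraries. The 18 adipocyte markers had 0 calls by edgeR (4 higher and 1 lower at an unadjusted p under 0.05, and 3 and 1 by DESeq2), but 2 higher and 1 lower with library totals only. They had a median of 0.95, and summed to 106 and 99.7 CPM at 65 days against 257 and 159.8 CPM at term. Their defining gene ADIPOQ, adiponectin, had 0.325 and 0.120 CPM at 65 days against 1.11 and 2.18 CPM at term. FABP4 had most counts at term. At 65 days it was GPD1, which was not called and overlaps a gene on its strand, with 62.8 and 54.0 CPM at 65 days against 7.57 and 18.1 CPM at term (log2 fold change -2.18, SE 0.50, edgeR, Benjamini-Hochberg adjusted p 0.0258). Of 25 T and B lymphocyte markers 0 were called by edgeR (1 higher and 1 lower at an unadjusted p under 0.05, and 1 and 1 by DESeq2), at a median of -0.11 and with sums of 78.2 and 75.1 CPM at 65 days against 52.1 and 95.8 CPM at term. PTPRC had most counts at 65 days, CR2 in term animal 1 and MZB1 in term animal 2, and PAX5 was at 0 in all 4 libraries. The 22 myeloid markers, led by CD68 but in term animal 1 by C1QB, had 0 calls by edgeR (2 higher and 0 lower at an unadjusted p under 0.05, and 1 and 0 by DESeq2), a median of -0.27 and sums of 89.9 and 117 CPM at 65 days against 104 and 67.1 CPM at term. The 21 endothelial markers, led by PLVAP, had 1 call higher and 0 lower, a median of -0.10 and sums of 475 and 516 CPM at 65 days against 704 and 419 CPM at term. The called gene was ERG, an endothelial transcription factor, which rose from 4.97 and 4.30 to 17.9 and 21.7 CPM (log2 fold change 2.10, SE 0.30). It was not called with library totals only, at a log2 fold change of 1.39. In these lists but for PAX5, no marker in the table was at 0 in all 4 libraries. The part of any of these cell types in the results was not tested.

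The 22 Schwann cell and neuronal markers had 0 calls by edgeR (1 higher and 10 lower at an unadjusted p under 0.05, and 0 and 4 by DESeq2), but 0 higher and 1 lower with library totals only. Their median was -1.67, with 17 lower in both term libraries and sums of 384 and 419 CPM at 65 days against 148 and 146 CPM at term. UCHL1, with most counts at 65 days, had 156 and 156 CPM at 65 days against 5.95 and 18.8 CPM at term (log2 fold change -3.65, SE 0.77, edgeR, Benjamini-Hochberg adjusted p 0.0189). ERBB3 had most at term. Of 19 hepatocyte markers 1 was called higher and 1 lower (0 and 3 with library totals only, median -0.77 with TMM). Their sums were 2744 and 2002 CPM at 65 days against 3190.3 and 5455 CPM at term, with most counts from APOA1 at 65 days, ALB in term animal 1 and SERPINA1 in term animal 2. VTN, vitronectin, rose from 36.2 and 34.8 to 97.8 and 143 CPM (log2 fold change 1.76, SE 0.29), and APOA1, an apolipoprotein, fell from 832 and 947 to 134 and 68.5 CPM (log2 fold change -3.13, SE 0.50). VTN was not called with library totals only, at a log2 fold change of 1.07. Of 10 enterocyte and gastric markers 1 was called higher and 1 lower (median -0.32), with sums of 389 and 539.7 CPM at 65 days against 6788 and 4587 CPM at term. TFF2, a secreted trefoil peptide that supplied most of them, rose from 221 and 334 to 6566 and 4105 CPM (log2 fold change 4.26, SE 0.46, edgeR, Benjamini-Hochberg adjusted p 0.00281). CDX2, the intestinal homeobox factor, fell from 6.07 and 7.68 to 0.393 and 0.906 CPM (log2 fold change -3.36, SE 0.55), and SI, GKN1 and GKN2 were at 0 in all 4 libraries. The 11 mesothelial markers had 0 calls by edgeR (1 higher and 2 lower at an unadjusted p under 0.05, and 0 and 2 by DESeq2), but 0 higher and 2 lower with library totals only. Their median was -1.63, with sums of 10.6 and 16.7 CPM at 65 days against 62.7 and 15.7 CPM at term, and KLK11 was at 0 in all 4. PODXL had 0.675 and 0.346 CPM at 65 days against 56.5 and 6.23 CPM at term (log2 fold change 5.92, SE 1.52, and 3.64 without term animal 1), and led the list in term animal 1, whereas WT1, ITLN2 and MSLN led in 65-day animals 1 and 2 and term animal 2. The 9 skeletal muscle markers had 0 calls by edgeR (0 higher and 2 lower at an unadjusted p under 0.05, and 0 and 1 by DESeq2), but 0 higher and 1 lower with library totals only. Their median was -1.84, with sums of 49.2 and 44.8 CPM at 65 days against 9.51 and 16.8 CPM at term, led by DES but in term animal 1 by RYR1. In the Schwann cell, hepatocyte and muscle lists no marker in the table was at 0 in all 4 libraries, and the part of these cell types in the results was not tested.

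The other WT ages give the course of these levels. These contrasts share the 65-day or the term libraries with the main one, so their values are only set side by side. Against 65 days, edgeR called 0 genes higher (0%) and 0 lower (0%) at 80 days and likewise 0 and 0 at 100 days, with 407 and 1166 genes at an unadjusted p under 0.05 and 3 and 70 calls by DESeq2. At 120 days 1 gene was called higher (0.00534%) and 0 lower (2092 at an unadjusted p under 0.05 in edgeR, 222 calls by DESeq2). This was CCL26, a chemokine chosen here after its values were seen, which had 1.71 and 3.81 CPM at 65 days. It stood at 133 and 109.97 CPM at 120 days and at 12.9 and 11.6 CPM at term, where both animals were above both fetuses of 65 days. Between 120 days and term 1 gene was called higher (0.00534%) and 1 lower (0.00534%), with 4685 genes at an unadjusted p under 0.05 in edgeR and 1677 calls by DESeq2. The former was PSAT1 and the latter C3H2orf40, which had 30.5 and 45.0 CPM at 120 days.

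In some genes the other ages lay between 65 days and term. PRSS2 stood at 1704 and 1555 CPM in the fetuses of 80 days, at 7134 and 4795 CPM in those of 100 days and at 5413 and 8535 CPM in those of 120 days, all between the levels of 65 days and term. ANO1 stood at 7.83 and 6.91, 8.76 and 7.99 and 19.4 and 23.8 CPM at these ages. KLF9 stood at 4.96 and 7.17 CPM at 80 days, where its levels overlapped those of 65 days, and then at 19.5 and 18.2 and 29.3 and 15.5 CPM. In further genes levels before term reached or came near those of term. ND6 stood at 404 and 369 CPM in the fetuses of 80 days and at 503 and 503 CPM in those of 100 days, within the range of the animals at term, but at 408 and 220.3 CPM in those of 120 days. VTN had 137 and 92.0 CPM at 100 days and LOC101117443, which was not called, 318490 and 177570 CPM, both overlapping term. SCTR had 18.05 and 15.3 CPM at 120 days, close to but above its levels at term. In others the larger part of the log2 difference lay between 120 days and term. MDK stood at 217 and 161, 186 and 106 and 62.5 and 155 CPM at 80, 100 and 120 days, with a log2 fold change of -1.79 from 65 to 120 days and -4.41 from there to term. HERPUD1 had 144 and 119 CPM at 120 days, near its level at 65 days, after 277 and 222 CPM at 100 days. DNAJC3 had 158 and 83.3 CPM and EDEM1 67.6 and 42.6 CPM at 120 days. POSTN had 133 and 466 CPM and COL3A1 2353 and 4184 CPM at 120 days, where animal 2 was near the level of 65 days. For ADIPOQ the animals of 120 days had 12.8 and 179 CPM, and the part of adipose tissue in the matrix values was not tested.

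**Figure D3:**
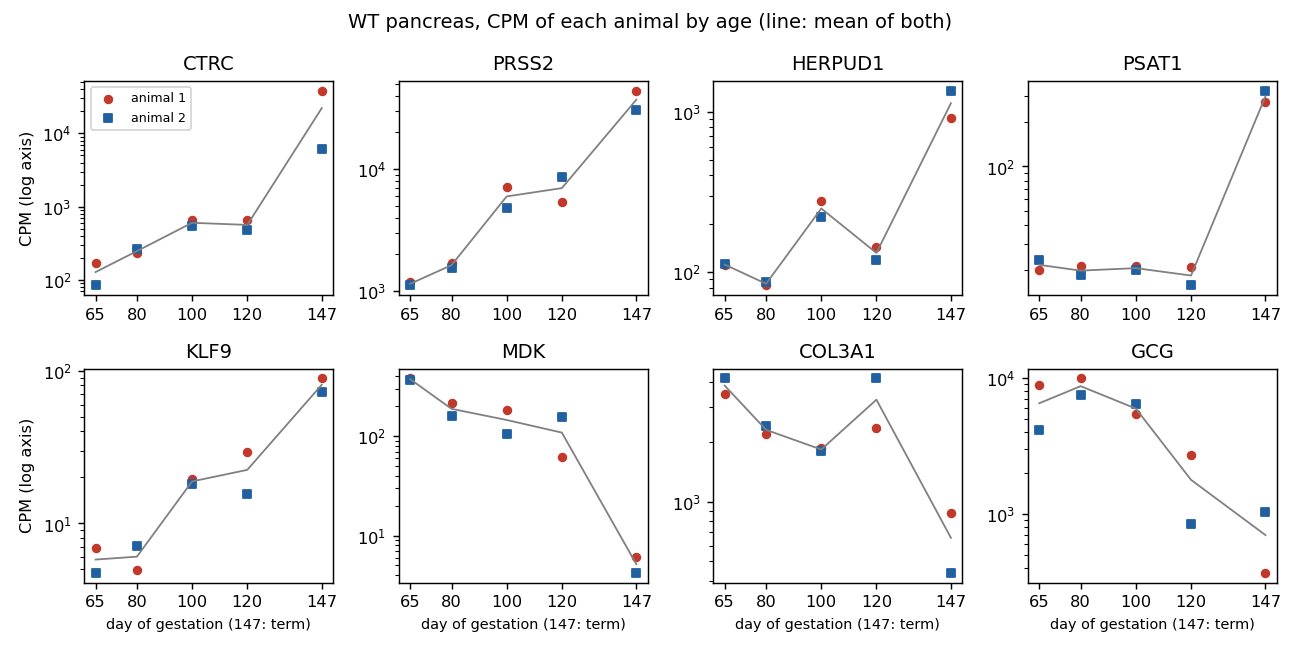
CPM on a log axis against the day of gestation for 8 genes in WT pancreas, with each animal as a point and the mean of both as a line. PSAT1 stays between 15.7 and 23.3 CPM up to 120 days and reaches 272 and 325 CPM at term, whereas the levels of PRSS2 and MDK at 80, 100 and 120 days lie between those of 65 days and term.

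The step from 80 to 120 days uses none of the 4 libraries compared, apart from the spread, filter and scaling set over all 10. There, 246 of the 282 genes called higher at term had a positive log2 fold change (median 0.47), against 55.4% of all genes tested (median 0.06). Of the 236 genes called lower, 39 were positive (median -0.46). Without 120-day animal 2 the counts were 258 and 17, against 49.5% of all genes tested. Between 80 and 100 days they were 245 and 36, against 48.8%.

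In CFTR−/− animals, which share no library with this comparison, 183 of 18737 genes (0.977%) were called higher and 189 (1.01%) lower at term. Of the genes called higher in WT, 257 of 282 had a positive log2 fold change there and 42 were called higher. Of those called lower in WT, 26 of 236 were positive and 47 were called lower, whereas 44.3% of all genes were positive. Without CFTR−/− term animal 2, whose library held 23171353 counts, 269 and 23 were positive, and 1 was called higher and 0 lower by edgeR (221 and 159 at an unadjusted p under 0.05 in these directions). For CTRC the log2 fold change was 7.44 in WT and 7.57 in CFTR−/− animals, for KLF9 3.80 and 4.02, and for MDK -6.20 and -4.37. Other genes called in WT had the opposite sign in CFTR−/− animals, where none of these passed the threshold. The study reported slightly lower RNA integrity in term CFTR−/− pancreas than in WT, and the part of RNA quality was not tested. For IGFBP4 the values were 3.25 and -1.12 (SE 0.47 in CFTR−/−), and for CCNE2 1.86 and -1.72 (SE 0.60). For SCTR they were -1.96 and 0.83 (SE 0.55), for ND6 2.37 and -0.55 (SE 0.49), for ERG 2.10 and -0.36 (SE 0.52), and for LFNG 2.63 and -0.31 (SE 0.58). Scaled over the CFTR−/− libraries alone, SCD had 0.400 and 2.20 CPM in these animals at 65 days against 0.221 and 0 CPM at term, where the mean was under that of 3 counts per library, so no fold is given. SBK1 had 0.461 and 0.506 CPM there at 65 days and 0 counts in both libraries of term, which is lower by at least 1.54 on the log2 scale with 3 counts per library set at term.

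The difference between genotypes itself was tested over all 20 libraries. It was called for 2 of 19522 genes (0.0102%), EXTL3 and HSPA6, with 4766 genes at an unadjusted p under 0.05. EXTL3, a glycosyltransferase of heparan sulfate synthesis that was named after its values were seen, rose in WT from 19.3 and 16.5 to 97.1 and 62.8 CPM (log2 fold change 2.16, SE 0.33, edgeR, Benjamini-Hochberg adjusted p 0.00671). In CFTR−/− animals it had 27.1 and 28.1 CPM at 65 days against 13.4 and 10.5 CPM at term, in the scaling of all 20 libraries. HSPA6, an inducible chaperone with near-identical relatives and a gene overlapping it on the same strand, had 26.1 and 22.4 CPM at 65 days against 1.28 and 6.69 CPM at term in WT (log2 fold change -2.58, SE 0.63, edgeR, Benjamini-Hochberg adjusted p 0.0304). Without term animal 2 this was -4.24 on the log2 scale. The WT course of HSPA6 was not steady. Relative to 65 days, its log2 fold change was -3.07 by day 80, 0.88 by day 100 and -0.60 by day 120. With both term animals, the WT fall of HSPA6 to term was thus no larger than its fall to day 80. In CFTR−/− animals it had 0.606 and 1.04 CPM at 65 days against 27.5 and 34.0 CPM at term. Each of the 8 libraries at 65 days and term was left out in turn, and the other 12 were not. The number of genes called for the difference was 0 by edgeR without WT 65-day animal 1 or 2, WT term animal 1, CFTR−/− 65-day animal 1 or 2 or CFTR−/− term animal 2 (3293 to 4191 genes at an unadjusted p under 0.05), 29 without WT term animal 2 and 74 without CFTR−/− term animal 1. No other gene differed between genotypes at the threshold, which does not show that the others changed alike.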

How the data were processed

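The authors made polyadenylated RNA libraries from 1 piece of the centre of each pancreas, sequenced them as 100 bp paired ends, aligned the reads to Oar_v4.0 with STAR and counted them per gene with featureCounts 1.6.3. The deposited values are raw counts per gene. The strand setting of the counting was not stated, so antisense overlaps are given as uncertain.

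Libraries were grouped by the genotype and age in their labels. The WT table was fitted with edgeR 4.0.16 in R 4.3.3 (quasi-likelihood test, TMM factors, filterByExpr at min.count 10 and min.total.count 15) over all 10 WT libraries, as the contrast of term minus 65 days, with Benjamini-Hochberg adjustment over all 18714 genes. Standard errors (SE) came from the log2 fold change and the F statistic, as the former over the root of the latter. The fold change, the false calls and the unadjusted p were checked on simulated counts with 200 changed genes. Recovery at the adjusted p was not part of this check. The simulated libraries did not have the uneven composition of the term libraries or the larger difference between term animals. The term libraries held 61638572 and 62040594 counts and those of 65 days 61851866 and 63946452, where a count of 0 allows 3 counts.

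Of 24478 gene IDs, 8432 were locus numbers, of which 501 took a name from the RefSeq table of ARS-UI_Ramb_v3.0, and 17 list symbols were matched to older symbols by hand. For a further 72 loci the symbol was already taken. Other locus numbers are printed as they stand, and list members without a usable name (such as INS, PDX1 and PTF1A) were not analysed here. The study's own locus names were not used.

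Genes were named by rule: in each direction the 10 called genes with the smallest adjusted p and the 10 with the largest fold change at a mean of at least 1 CPM in the higher group, the 10 genes highest per length at each age, in each list the 3 called members per direction with the smallest adjusted p and the most abundant member, the hormones, lineage transcription factors, ligands and receptors, and genes the study followed. Not all genes under the rule are printed. The members and lists were chosen with earlier results of these data known. Alternatives were other scalings, tests (DESeq2 1.42.0), filters, thresholds and sets of libraries, a replicate block and removal of a gene length trend. Leaving out both 120-day WT libraries was chosen after seeing the data. Figures used Python 3.11.15 and matplotlib 3.10.9.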

Additional observations from a re-analysis of the deposited data

Results flagged for a closer look

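EXTL3 and HSPA6 stood apart because term against 65 days differed between genotypes in a test of that difference over all 20 libraries (edgeR, Benjamini-Hochberg adjusted p 0.00988 for each). For EXTL3 the log2 fold change was 2.16 in WT and -1.17 in CFTR−/− animals, a difference of -3.35 (SE 0.40). Leaving out each of the 8 libraries at 65 days and term in turn gave -3.62 to -3.05, with adjusted p from 0.00191 to 0.0776 (edgeR, Benjamini-Hochberg). For HSPA6 it was -2.58 in WT (-4.24 without term animal 2) and 5.21 in CFTR−/− animals, a difference of 7.77 (SE 0.98), and 6.996 to 9.440 without 1 of these 8 libraries, with adjusted p from 0.00191 to 0.0893 (edgeR, Benjamini-Hochberg). A gene on the same strand overlaps HSPA6, so its counts are uncertain. Its WT level also swung before term, with a log2 fold change relative to 65 days of -3.07 by day 80 and 0.88 by day 100. The other 12 libraries were not left out of this test. All CFTR−/− animals came from 1 cloned male line, so that genotype, cloning and line cannot be told apart. Term CFTR−/− samples also had slightly lower RNA integrity according to the study, and its part in these differences was not tested.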

How the results depend on the processing

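The number of genes called (518, of which 282 higher and 236 lower) moved with the setting, and the cause was not tested beyond what each setting changes by construction. It was 1154 (113 higher, 1041 lower) with library totals only, 2815 (1560 and 1255) with DESeq2, 1876 (944 and 932) with edgeR's likelihood ratio test and 183 (106 and 77) against a fold of 1.5. A looser adjusted p of 0.05 gave 2452 (1300 and 1152), and an unadjusted p of 0.01 gave 2988 (1568 and 1420). With only the 4 libraries compared it was 0 by edgeR (0 higher and 0 lower, with 6368 genes at an unadjusted p under 0.05). With all 20 libraries it was 1149 (610 and 539), and without both 120-day libraries, chosen after seeing the data, 1478 (734 and 744).

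Without 1 library the number ran from 0 to 1491 (0 to 779 higher, 0 to 745 lower), where a lone animal is assumed to vary like the other groups. Of the 518 genes, 500 were also called with DESeq2 size factors in edgeR (549 called), 334 with library totals only, 518 with DESeq2, 489 without the filter (519 called), 380 with the legacy fit (381 called) and 510 with the length trend removed (750 called). Without term animal 1 or 2, 145 and 133 of the 518 were also called, 7 without either 80-day animal and 111 without either 100-day animal. Without either 65-day animal it was 0 of 0 calls by edgeR (3660 and 3818 genes at an unadjusted p under 0.05, and 2815 calls by DESeq2 with all libraries).

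With the replicate number as a block 82 were called (53 higher and 29 lower), of which 80 were among the 518. The numbers do not pair the animals: deviations of the same number at 65 days and term had r = -0.07 across genes, within -0.42 to 0.23 over 10 pairs of groups.

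Directions turned in few named results. NR5A2 had 0.0396 with DESeq2 size factors, 0.0399 with DESeq2 and 0.0105 without the filter, and -0.16 to 0.17 without 1 library. FGF10 had -0.31 with library totals only, and DNASE1 -0.76 to 4.19 without 1 library. With library totals only the median of DNA replication genes was -0.63, of immediate early genes -0.26 and of heat shock genes -0.33, and with DESeq2 size factors that of FGF pathway genes was 0.007. The difference between genotypes was called for 595 genes at an adjusted p of 0.05 and 2058 at an unadjusted p of 0.01, and for 0 to 74 without 1 of the 8 libraries at 65 days and term.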

Other observations

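Among WT fetuses of 120 days, animal 2 stood apart from animal 1 and from the other WT libraries in several marker lists. Its adipocyte markers summed to 787 CPM against 115 CPM in animal 1, its T and B lymphocyte markers to 478 against 56.6 CPM, its myeloid markers to 554 against 71.5 CPM and its erythroid markers to 259 against 81.6 CPM. In the other 8 WT libraries these sums lay at 77.9 to 257 CPM for adipocyte, 52.1 to 174 CPM for lymphocyte, 67.1 to 117 CPM for myeloid and 58.6 to 155 CPM for erythroid markers. The cause of its levels was not tested.

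SYCP2L, chosen after its values were seen, was the gene called higher between 80 and 120 days (log2 fold change 9.18, edgeR, Benjamini-Hochberg adjusted p 0.00442). The fetuses of 65 days had 3.95 and 3.66 CPM of it and those of 80 days 0.0843 and 0.0498 CPM. Those of 120 days had 60.6 and 18.2 CPM, and the lambs at term 53.6 and 37.2 CPM.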
